A study of Oryza sativa Indica Group with 4 samples.

Results

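The ILL genes of rice encode a family of hydrolases named for likeness to the Arabidopsis enzymes that free auxin from its conjugates. The family was taken as every probe set whose single annotated gene carries a symbol or synonym ILL1 to ILL9, with or without the prefix Os. Of the 9 names searched, 7 were found in the gene table (ILL1, ILL2, ILL3, ILL5, ILL6, ILL7 and ILL8), and ILL4 and ILL9 were not analysed here. They were 7 of 17905 genes with a probe set of their own and had 8 of the 57381 probe sets, 2 of them for ILL5 and 1 for each of the others. A filter on low signal passed 7 of the 8 and left out ILL3.

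Auxin is held in plant cells partly as inactive conjugates in which its acid group is joined to an amino acid. GH3 synthetases make such conjugates, and hydrolases of the ILR1 and ILL type, best known from Arabidopsis, split some of them and release the free hormone. In Arabidopsis some members of the family also split the conjugate of jasmonate with isoleucine, which is the active form of that hormone. Numbers in Arabidopsis and rice names do not mark matching genes, and no substrate is assigned to a rice member here.

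The 4 Affymetrix rice arrays came from Indica rice of the Basmati cultivar B370. There were 2 from the line labelled as a T-DNA insertional mutant named OsAPC6, after a subunit of the anaphase-promoting complex, and 2 from wild type. All were of seedlings 15 days after germination, grown in optimal conditions, with 8 µg of total RNA per labelling. The sources used here name neither the promoter nor the cassette of the insertion and do not say whether both mutant samples descend from 1 plant, and although the design calls the replicates biological, the p-values measure only the spread between these samples.

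With 2% trimmed from either end, the mean signal was 500.1 in every array. Of 64 probe sets for foreign reporter genes, 63 gave signals of 0.3 to 78.5 in the 4 arrays with a median of 4.7, which served as a gauge of background. The remaining one was left out of that gauge, at 10386.1 and 9989.3 in mutant arrays and 245.6 and 287.2 in wild-type arrays. Seedling material was checked by its markers. The shoot markers CAB2R, rca, PORA, PORB, GLK1 and RBCS were detected, with signals up to 53054.5, but 1 RBCS probe set and RBCS1 stayed within the reporter range. CAB2R, rca and PORA were higher in both mutant arrays, PORA at 1533.0 and 1391.9 against 1062.6 and 1037.9 in wild type. PORB and GLK1 were lower in both, GLK1 at 1832.6 and 1878.2 against 2822.9 and 2935.5 in wild type. RBCS probe sets above the reporter range were higher in both mutant arrays or overlapped. Among root markers Lsi1 and NAS3 lay above that range in all 4 arrays, while Lsi2 and NAS2 stayed within it. The root marker NAS1 crossed it, at 2.2 and 25.3 in mutant, against 93.1 and 149.3 in wild type. Lsi1 was also lower in both mutant arrays, at 967.1 and 1025.3 against 1522.8 and 1836.5 in wild type. NAS2, NAS3 and Lsi2 were higher in both, NAS3 at 761.0 and 967.2 against 684.5 and 685.9 in wild type. Both anther markers and 6 of 10 probe sets for seed storage proteins also stayed within the reporter range. Of the rest, the seed marker GLB gave 3368.2 and 3302.2 in mutant and 2563.2 and 3022.2 in wild type. A GLUA2 probe set gave 962.9 and 962.0 in mutant, against 1162.9 and 1075.2 in wild type. The other GLUA2 probe set was also lower in both mutant arrays, and GluB5 overlapped. For the GAPDH control gene, signal near the 3′ end over that near the 5′ end, a measure of RNA integrity, was 18.4 and 16.2 in mutant arrays, against 9.72 and 9.84 in wild-type arrays. The ubiquitin ratio also separated the genotypes (1.32 and 1.27 in mutant, 1.04 and 1.03 in wild type). Those of actin (12.2 and 16.6 in mutant, 16.1 and 8.79 in wild type) and cyclophilin (2.92 and 2.38 in mutant, 2.27 and 2.86 in wild type) overlapped. The part of these ratios, and of the shoot, root and seed markers, in the differences below was not tested.

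The comparison asked which hydrolase transcripts differed between the insertion line and its parent cultivar. ILL8 rose 3.29-fold by mean signal in mutant seedlings, and 1 of the 2 ILL5 probe sets rose about 1.18-fold. The count of falls in limma was 0, beside 10.2% of all probe sets tested, with 1 (ILL1) at an unadjusted p under 0.05 and 0 by a rule of 2-fold in all 4 pairs of arrays. The other 5 tested probe sets, for ILL1, ILL2, ILL6, ILL7 and the second ILL5 sequence, did not pass. In limma, with Benjamini-Hochberg adjustment over all 38172 probe sets tested and a threshold of 0.05, the called share was 2 of 7 (28.6%), beside 19.0% of all probe sets tested. Both calls were upward, beside 8.78% of all tested probe sets called upward. Among the 16488 genes tested at 1 probe set per gene, 26.1% were called, 12.8% upward and 13.3% downward. With 7 probe sets, the called share of the ILL members is near the background. The median log2 difference, mutant minus wild type, was 0.25 for the 7 and -0.01 for all tested probe sets, while the median absolute difference was 0.25 for the 7 and 0.30 for all.

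**Figure D1:**
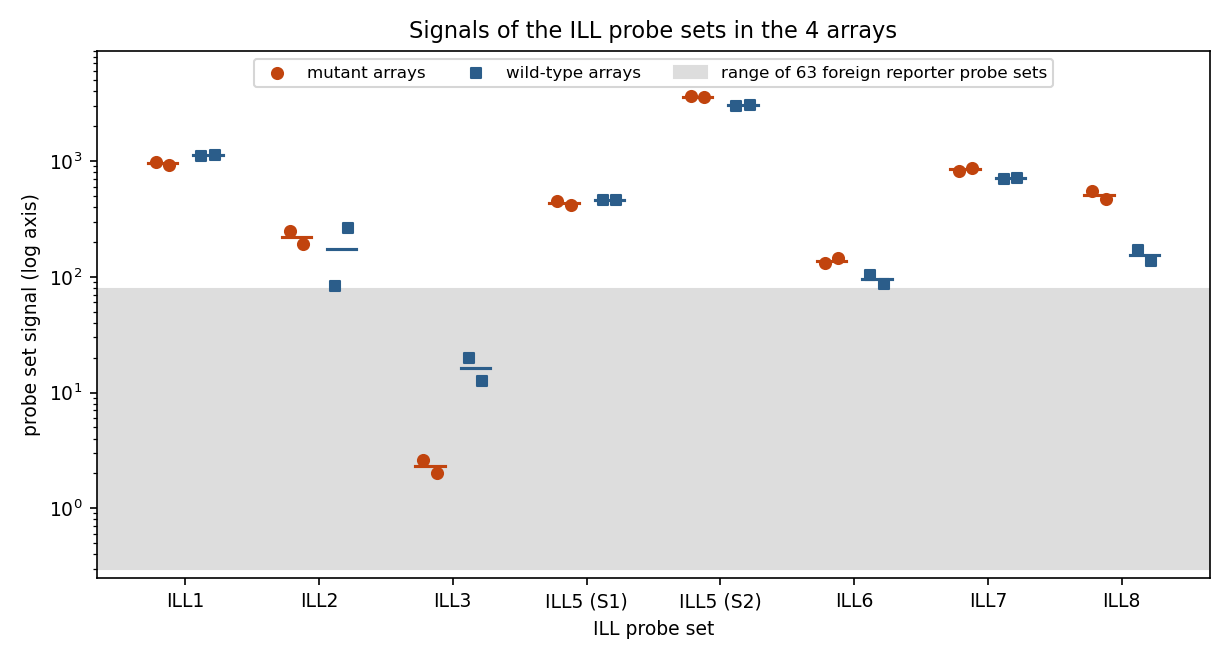
Signal of each ILL probe set (log axis) in the mutant arrays (circles) and the wild-type arrays (squares), with short lines at the mean of each genotype and a grey band for the 0.3 to 78.5 range of 63 foreign reporter probe sets. ILL8 lies higher in both mutant arrays (549.4 and 470.5) than in both wild-type arrays (171.9 and 137.9), and ILL3 lies inside the band in all 4 arrays. Heights of different probe sets cannot be compared as transcript levels.

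ILL8 (LOC4342839) had signals of 549.4 and 470.5 in the mutant arrays, against 171.9 and 137.9 in the wild-type arrays. All 4 values lay above the reporter range, and the genotypes did not overlap. In whole seedlings, more cells of an expressing type and more RNA per cell cannot be told apart. The mean signal was 510.0 ± 55.8 in mutant and 154.9 ± 24.0 in wild type (SD, n = 2 each). Across the 4 pairs of a mutant and a wild-type array the ratio ran between 2.74 and 3.98, while replicates differed 1.17-fold in mutant and 1.25-fold in wild type. The log2 difference after adding 16 to the signal was 1.62 ± 0.17 (SE), with a 95% interval of 1.24 to 2.00 and a limma adjusted p of 0.000131. Among all tested probe sets 1.47% had a larger absolute difference, and 492 had a larger upward one. ILL8 was the member at least 2-fold apart in the same direction in all 4 pairs on that scale, a rule that took 3.35% of tested probe sets in either direction and 2.54% upward. The largest difference among 19 control probe sets for rice actin, cyclophilin, GAPDH and ubiquitin was -0.77. With a single variance prior in place of one that follows signal level, ILL8 no longer passed (limma adjusted p = 0.0656); that setting called 0 probe sets in all, with 9039 at an unadjusted p under 0.05, and the rule of 2-fold in all pairs took 1277.

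ILL7 (LOC4342838) lies next to ILL8 in the gene order of the Japonica assembly ASM3414082v1. Its signals were 827.0 and 871.7 in mutant, against 699.6 and 721.4 in wild type. Both mutant values were the higher ones, by 1.15 to 1.25 times over the 4 pairs. The log2 difference of 0.25 ± 0.10 (SE; 95% interval 0.03 to 0.47) did not pass after adjustment (limma adjusted p = 0.108).

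Within each array, ILL8 stood closer to ILL7 in the mutant. The log2 signal of ILL8 minus that of ILL7 was -0.58 and -0.87 in the mutant arrays and -1.93 and -2.26 in wild type, for a shift of 1.37. The genotypes did not overlap, but an exact two-sided permutation test over 2 against 2 arrays cannot give a p under 0.333, which is what it gave. The genotypes also did not overlap for ILL8 set against each of the other 5 tested ILL probe sets. Those shifts ran from 1.14 (against ILL2) to 1.85 (against ILL1), with an exact permutation p of 0.333 each. Against ILL6, ILL8 stood farther above in mutant (1.93 and 1.60) than in wild type (0.65 and 0.58). All of these shifts contain the rise of ILL8 itself and are no separate evidence for it.

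The gene on the other side of ILL7, LOC4342837, carries no name in the gene table. Its probe set gave 1077.6 and 1010.0 in mutant, against 985.3 and 800.6 in wild type, a log2 difference of 0.23 ± 0.11 (SE) that did not pass. Beyond ILL8, the next gene in order, LOC4342840, had no probe set of its own. On the far side of LOC4342837, LOC4342836 gave 1213.2 and 1338.9 in mutant, against 1258.7 and 1402.5 in wild type. Its log2 difference of -0.06 ± 0.09 (SE) did not pass. Of the consecutive genes measured at this place, LOC4342836, LOC4342837, ILL7 and ILL8, the test called ILL8 alone.

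ILL5 (LOC4336428) was read by a pair of probe sets whose differences had opposite signs, with 95% intervals that overlapped. The first, ending in S2_at and called ILL5 (S2) here, gave 3631.3 and 3566.0 in mutant, against 3015.6 and 3082.9 in wild type. These values were tight within each genotype, with replicates 1.02-fold apart in both, and they did not overlap between genotypes. The rise was small, at 1.16 to 1.20 times over the 4 pairs and a log2 difference of 0.24 ± 0.07 (SE; 95% interval 0.09 to 0.39; limma adjusted p = 0.0339). In 58.7% of tested probe sets the absolute difference was larger.

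The other, ending in S1_at and called ILL5 (S1), gave 455.5 and 417.8 in mutant, against 466.0 and 456.9 in wild type. Here the mutant values were the lower ones, narrowly, with a log2 difference of -0.08 ± 0.12 (SE; 95% interval -0.35 to 0.20; limma adjusted p = 0.738). The log2 distance between the ILL5 probe sets, S2 minus S1, was 2.95 and 3.05 in the mutant arrays and 2.65 and 2.71 in wild type. That shift of 0.32 separated the genotypes (exact permutation p = 0.333, the smallest possible). The part of the ILL5 transcript that either probe set reads was not analysed here.

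The call on ILL5 was fragile. It was lost without wild-type replicate 1 (limma adjusted p = 0.197), without wild-type replicate 2 (0.138), without mutant replicate 1 (0.0834) and without mutant replicate 2 (0.0531), while the difference itself stayed between 0.22 and 0.25. It was also lost without the filter on low signal (limma adjusted p = 0.0618) and without the variance trend (0.273).

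**Figure D2:**
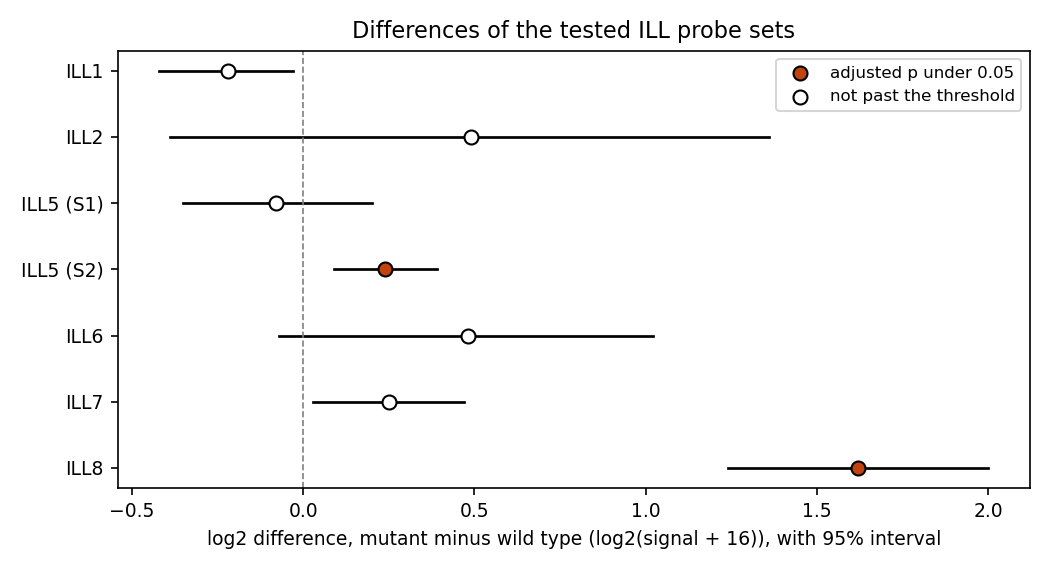
Log2 difference, mutant minus wild type, of the 7 tested ILL probe sets on the log2(signal + 16) scale, with 95% intervals from limma as bars. Filled points passed an adjusted p of 0.05. ILL8 stands at 1.62 and ILL5 (S2) at 0.24, and ILL2 has the widest interval, -0.39 to 1.36.

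ILL1 (LOC4324686), also listed as IAR in the gene table, was lower in both mutant arrays without passing the test. Its signals were 978.9 and 934.7 in mutant, against 1107.3 and 1132.7 in wild type. Mutant means were 0.85 of wild-type means, with a log2 difference of -0.22 ± 0.09 (SE; 95% interval -0.42 to -0.03; limma adjusted p = 0.114). Besides ILL5 (S1), it was the tested probe set with a negative difference.

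ILL6 (LOC4341907), close to the reporter range, gave 132.0 and 144.7 in mutant, against 103.8 and 86.6 in wild type. The mutant values lay 1.27 to 1.67 times above the wild-type ones. Its log2 difference of 0.48 ± 0.25 (SE) had a 95% interval of -0.07 to 1.02, so that both no change and a 2-fold rise lay within it, and it did not pass (limma adjusted p = 0.23).

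ILL2 (LOC4327677) was the one tested member whose genotypes overlapped. The suffix _x_at of its probe set marks possible cross-hybridisation. It gave 248.4 and 192.1 in mutant, against 84.0 and 264.2 in wild type. The wild-type replicates differed 3.15-fold, more than any genotype ratio of the other tested members apart from ILL8. The log2 difference was 0.49 ± 0.39 (SE; limma adjusted p = 0.464). Its direction rested on single wild-type arrays: the difference was -0.26 without wild-type replicate 1 (limma adjusted p = 0.592) and 1.23 without wild-type replicate 2 (limma adjusted p = 0.0145).

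ILL3 (LOC4334707) gave 2.6 and 2.0 in mutant, against 19.7 and 12.6 in wild type. Although both mutant values were lower, all 4 lay within the reporter range, so no fold change is given. Its mean log2 value of 4.60 was below the 4.91 at which the filter lay. With no filter its difference did not pass (limma adjusted p = 0.16).

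Across the 7 tested probe sets the arrays of the genotypes did not overlap in 6, beside 56.7% of all tested probe sets. In 4 of them (ILL5 S2, ILL6, ILL7 and ILL8) both mutant arrays were higher, beside 26.9% of all tested, and in 2 (ILL1 and ILL5 S1) both were lower, beside 29.8%.

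Among other genes that make, conjugate, move and read auxin, or conjugate and read jasmonate, most of those that passed fell, whereas ILL8 rose. The 6 lists of them, taken by name with 1 probe set per gene, held 59 tested genes, of which 2 rose, 21 fell and 36 did not pass. Their called share was 39.0%, beside 26.1% of the 16488 genes tested at 1 probe set per gene (12.8% upward and 13.3% downward), and their median log2 difference was -0.21, beside -0.02 over those genes.

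**Figure D3:**
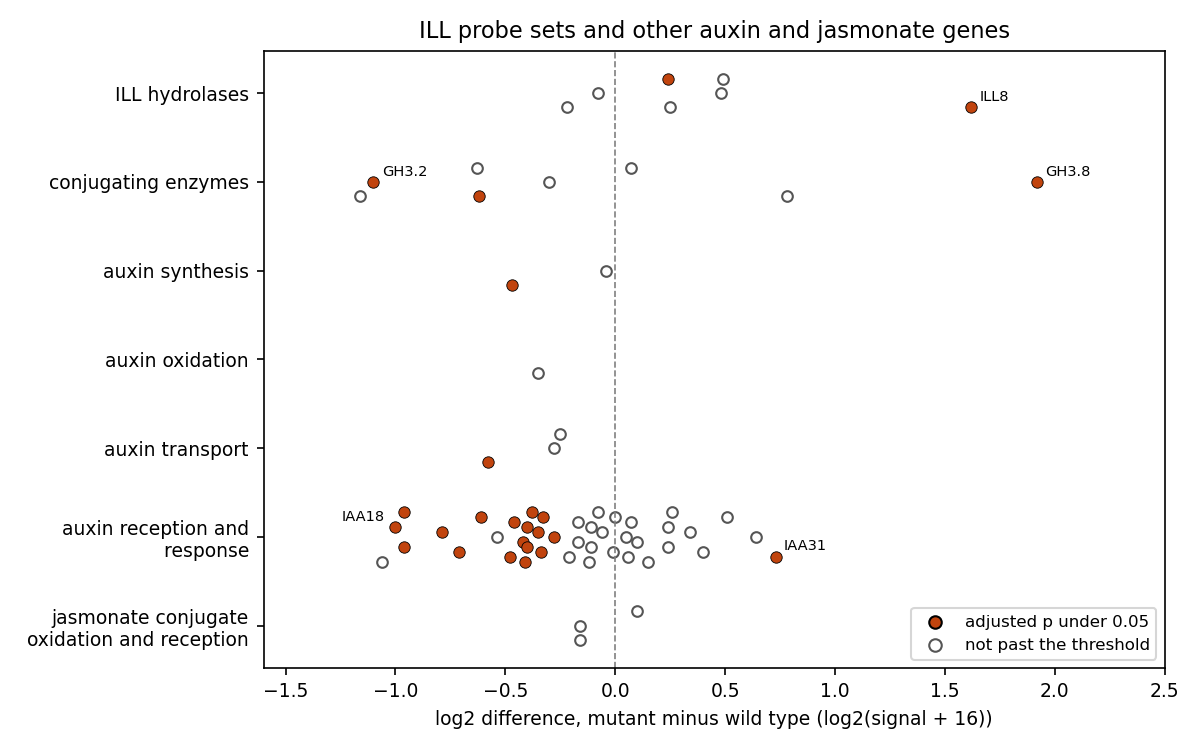
Log2 difference, mutant minus wild type, of the 7 tested ILL probe sets and of 59 genes in 6 lists of auxin and jasmonate genes (1 probe set per gene, log2(signal + 16) scale). Filled points passed an adjusted p of 0.05. ILL8 at 1.62 and GH3.8 at 1.92 stand apart at the right, while 17 of 42 genes of auxin reception and response were called to the left of 0 and IAA31 to the right.

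The conjugating enzymes, of the GH3 family, moved in both directions. Of 8 tested genes 1 rose, 2 fell and 5 did not pass, a called share of 37.5% beside 26.1% of all genes tested. Whether they share substrates with the ILL members was not tested. GH3.8, which in rice joins auxin to amino acids, had 225.7 and 270.3 in mutant, against 47.6 and 60.3 in wild type, a log2 difference of 1.92 (limma adjusted p = 0.0005). Both wild-type values lay within the reporter range, so the size of that rise is uncertain. GH3.2, also an auxin-conjugating enzyme of rice, fell by 1.10 (limma adjusted p = 0.00219), with 129.1 and 152.1 in mutant and 307.7 and 328.8 in wild type. GH3.5, listed also as JAR1, which conjugates jasmonate, fell by 0.62 (limma adjusted p = 0.000763). GH3.6, at 118.7 and 159.5 in mutant and 69.6 and 77.1 in wild type, did not pass, and both wild-type values lay within the reporter range. GH3.1 and GH3.4, which did not pass either, were lower in both mutant arrays, with log2 differences of -1.16 and -0.63. Their mutant values lay within the reporter range. GH3.7 and GH3.11 overlapped between genotypes.

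Of 2 tested genes of auxin synthesis, FIB, a tryptophan aminotransferase also listed as TAA1, fell by 0.47 (limma adjusted p = 0.0198). That call was lost without wild-type replicate 2 (limma adjusted p = 0.103), without mutant replicate 2 (0.0931) and with no filter (0.0619). YUCCA1, of the family of monooxygenases that complete the route, did not pass, and 1 array of each genotype lay within the reporter range. DAO, a dioxygenase that oxidises auxin, had a difference of -0.35 and did not pass. Of 3 tested PIN carriers, PIN5A fell by 0.58 (limma adjusted p = 0.00838), a call lost without wild-type replicate 1 (limma adjusted p = 0.0777). PIN3A and PIN4 did not pass; both mutant values of PIN3A and all 4 values of PIN4 lay within the reporter range.

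Among 42 genes of auxin reception and response, which here were Aux/IAA repressors, ARF transcription factors and SAUR39, 17 fell, beside 13.3% of all genes tested, 1 rose, beside 12.8%, and 24 did not pass. The 18 calls dropped to 9 without wild-type replicate 1 and to 10 without wild-type replicate 2. IAA18, IAA12 and IAA9 fell by 1.00, 0.96 and 0.96, and IAA13 by 0.79. The limma adjusted p-values of these 4 were 0.00058, 0.0407, 0.0374 and 3.55e-05. The sizes for IAA12 and IAA9 are uncertain, since 1 mutant value of IAA12 and both of IAA9 lay within the reporter range. Their calls were also lost without wild-type replicate 1 (limma adjusted p = 0.0579 for IAA12 and 0.0721 for IAA9), without wild-type replicate 2 (0.264 and 0.258), without mutant replicate 1 (0.141 and 0.0992) and with no filter (0.137 and 0.132). IAA31 was the gene that rose, by 0.73. The 3 jasmonate receptor genes of the COI group did not pass, with differences of -0.16 (COI1), -0.16 (COI1B) and 0.10 (COI2). Without wild-type replicate 1 the number of called genes in all 6 lists dropped to 13, and without wild-type replicate 2 to 15.

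Genes with a pattern most like that of a called ILL probe set were found by the Euclidean distance between log2 values centred on their mean over the 4 arrays, among 2288 named genes. Nearest to ILL8 was Cht2, a chitinase gene, at a distance of 0.212, with 8317.8 and 8284.2 in mutant, against 2680.4 and 2527.4 in wild type. Other Cht2 probe sets had log2 differences of 1.75 and 1.20, against 1.67 for the one used. ERG1 (distance 0.253; log2 difference 1.46) and ABCG48, of the ABC transporter family (0.254; 1.83), came next. Nearest to ILL5 (S2) were CSLE1, a cellulose synthase-like gene (0.023), SC34 (0.026) and RPL39B, a ribosomal protein gene (0.029), with log2 differences of 0.24, 0.22 and 0.21. Over 4 arrays such likeness largely reflects the size of the genotype difference.

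**Figure D4:**
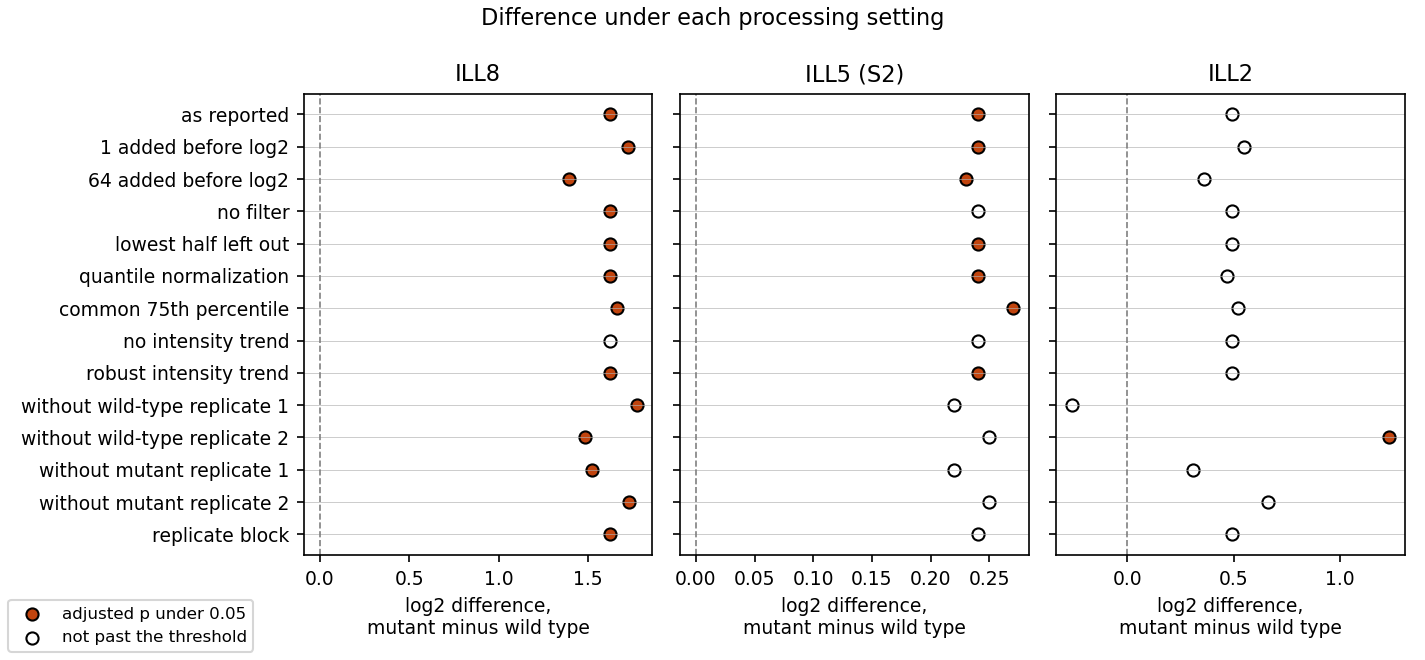
Log2 difference, mutant minus wild type, of ILL8, ILL5 (S2) and ILL2 as reported and under 13 other settings, with filled points for an adjusted p under 0.05. ILL8 stays between 1.39 and 1.77 and passes in all settings but the one without an intensity trend, ILL5 (S2) passes in 6 of the 13, and ILL2 runs between -0.26 and 1.23.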

How the data were processed

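Biotin-labelled RNA from seedlings was hybridised to Affymetrix rice arrays, 1 per sample, per the labels' protocols. The table deposited by the authors holds 1 linear intensity per probe set and array. The submitters' processing notes name GCOS 1.2; its signal algorithm is not given in the sources used here. No detection calls were used. Equal trimmed means show that the authors had scaled the arrays to a common level.

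Signals were taken to log2 after 16 was added, in R 4.3.3. The added 16 understates differences of dim probe sets. Leaving out 123 AFFX controls and the third that had the lowest mean log2 values (19086 probe sets) left 38172. Array medians lay within 0.0604, under a tolerance of 0.1, so no normalization was added. Genotypes were compared with limma 3.58.1 (lmFit, eBayes with intensity trend), adjusted by Benjamini-Hochberg over all 38172 probe sets. The fit was also run on simulated data whose noise followed signal level by design, so that run cannot check the intensity trend. Log2 differences are mutant minus wild type. The number of arrays limits the precision.

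Genes were named from the platform annotation through gene numbers to the RefSeq table of assembly ASM3414082v1; a single gene was listed for 22436 probe sets, several for 95 and none for 34850. Probe sets of 1 gene were kept apart, and lists used the one with the highest mean log2 value. LAX1 and LAX2 were left out of the transport list as panicle genes. Named were all ILL probe sets and up to 4 called genes per list with the largest differences. The 3 nearest genes per called ILL probe set were also named. GH3.1, GH3.4, GH3.6, GH3.7, GH3.11, YUCCA1, DAO, PIN3A, PIN4, IAA31, the COI genes and neighbours in gene order were added after their values were seen. Members and lists were chosen with earlier results of these data known. Alternatives covered the added number, filter, scaling, variance prior, single arrays, the replicate number as a block, a fold rule and the mean of a gene's probe sets.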

Additional observations from a re-analysis of the deposited data

Results flagged for a closer look

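A reporter probe set outside the rice genes separated the genotypes, with a mean signal of 10188 in the mutant arrays (10386.1 and 9989.3) and 266.4 in the wild-type arrays (245.6 and 287.2), while the other 63 reporter probe sets did not exceed 78.5 in any array.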

How the results depend on the processing

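ILL8 passed in 12 of 13 alternatives. Without the intensity trend ILL8 (1.62) and ILL5 S2 (0.24) did not pass, and 0 probe sets, 0 ILL probe sets and 0 genes of the lists were called, against 7244, 2 and 23; 9039, 2 and 25 had an unadjusted p under 0.05, and the cause was not tested. With no filter, where more probe sets share the adjustment, and with the replicate block, 1 ILL probe set was called, ILL5 S2 missing at 0.24 in both. Same-numbered arrays did not deviate together (correlation 3.1e-05), so the numbers were not taken as pairs, and the block (limma adjusted p = 0.0556 for ILL5 S2) called ILL8. The rule of 2-fold in all 4 pairs took 1277 probe sets, 1 ILL probe set and 1 gene of the lists. Leaving out each array in turn, under the assumption that a lone sample varies as the remaining pair does, the calls were 4633 to 6536 probe sets, 1 to 2 ILL probe sets, 13 to 22 genes of the lists, 1.48 to 1.77 for ILL8 and 0.22 to 0.25 for ILL5 S2. ILL5 S2 lost its call in each of these fits, and where 2 ILL probe sets were called they were ILL8 and ILL2. ILL2 reversed to -0.26 without wild-type replicate 1 and reached 1.23 without wild-type replicate 2. Of the tested ILL probe sets, ILL2 alone changed sign in these alternatives. Signals near the reporter range limit what ILL3, ILL6 and ILL2 can show.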
